A study of Mus musculus with 15 samples.

Results

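Adhesion genes were described in primary mouse embryonic fibroblasts that lacked the histone deacetylase Hdac1, had reduced Hdac2, or both. The set was a list of 34 symbols with 12 integrin alpha subunits, 8 integrin beta subunits, 9 cadherins, and 5 genes that are immunoglobulin-type molecules or Cd44. Its members are given by name, and they were chosen with earlier results of these data known. The only measured value in the rule is the mean that picks the probe set of each gene. Each gene was represented by the probe set that was annotated to its symbol alone and had the highest mean over the 15 Affymetrix whole-genome mouse expression arrays. Of the 34 genes 33 had such a probe set, out of 18193 symbols in all; the exception was Itga11, which was not analysed here. A filter on dim probe sets kept 28 of the 33 among 13382 genes, and these 28 were tested. The 5 that were not kept were Itga10, Itgb2, Itgb6, Icam2 and Cdh5, and Itgb4 and Icam1 were kept because of their KO/Kd arrays (the group in which both perturbations were combined).

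All cells were male, and 4 of the 5 groups of 3 arrays came from fibroblasts with a floxed Hdac1 gene (fl/fl) that carried 2 retroviruses. The first expressed Cre-ERT2, a recombinase that tamoxifen activates, and the second delivered either a scrambled micro-RNA or one that targets Hdac2. Scrambled micro-RNA with ethanol was the control, scrambled micro-RNA with 200 nM tamoxifen the Hdac1 knockout (KO), the Hdac2 micro-RNA with ethanol the knockdown (Kd), and the Hdac2 micro-RNA with 200 nM tamoxifen the combination (KO/Kd). The fifth group, +/+ tamoxifen, was made of Hdac1 +/+ fibroblasts with 200 nM tamoxifen, whose viral constructs the labels do not name. Control cells thus carried Cre-ERT2 and a floxed gene but had no tamoxifen, and the +/+ cells had tamoxifen and an Hdac1 locus that was not floxed, so drug, genotype and culture cannot be told apart between these groups.

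Integrins are heterodimers of an alpha and a beta subunit that tie the extracellular matrix to the actin cytoskeleton, and the pairing sets the ligand: beta1 joins most alpha subunits, whereas alphav, beta3 and beta5 make receptors for vitronectin and other RGD proteins. Classical cadherins join cells to each other through calcium-dependent contacts and are linked to actin by catenins. Icam1 and Vcam1 are immunoglobulin-type ligands for leukocyte integrins, and Cd44 is the main receptor for hyaluronan. Fibroblasts are known for beta1 and alphav integrins, N-cadherin (Cdh2) and cadherin-11 (Cdh11), and lack most leukocyte and epithelial adhesion receptors.

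Hdac1 intensity averaged 3557 ± 101 in control, 161 ± 19.8 in KO and 156 ± 48.6 in KO/Kd cells, and Hdac2 averaged 7051 ± 449 in control, 958 ± 62.1 in Kd and 1025 ± 9.88 in KO/Kd cells (SD, n = 3 arrays each), so both perturbations were visible in the arrays that carry their labels. Array medians ran from 24.1 to 30.7, with 29.1 to 30.7 on the KO/Kd arrays. Differences are of log2(intensity + 16), which understates the change of dim genes, and adjusted p-values are limma's with Benjamini-Hochberg adjustment over 13382 genes at a threshold of 0.05. The median difference of all genes from control was 0.08 for KO, 0.04 for Kd, 0.16 for KO/Kd and 0.08 for +/+ tamoxifen, and it came to between -0.02 and 0.02 when arrays were quantile-normalized or centred on their medians. Intensities below the 40th percentile of an array, which lay between 18.8 and 22.5, are called dim here. In bulk RNA, fewer cells of a type and less RNA per cell cannot be told apart.

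Most of the tested adhesion genes differed from control in KO/Kd cells, fewer did in KO cells, and the fewest did in Kd cells. In KO/Kd cells 14 of 28 were higher and 6 lower than control, where 46.2% of all genes were higher and 19.3% lower, so the share of adhesion genes called was close to that background. Without Itgb4 and Icam1, which passed the filter through their KO/Kd arrays, 12 of 26 were higher and 6 lower, against 45.3% and 19.8% of the 13040 genes that pass without those arrays. By size, 8 of 28 (28.6%) differed by at least 2-fold, against 16.7% of all genes, and the median absolute difference was 0.66, against 0.35 over all genes. The 8 include Icam1, whose difference is a description, and the median includes Itgb4 and Icam1. Quantile normalization gave 11 higher and 9 lower adhesion genes in KO/Kd, with 32.2% of all genes higher and 33.4% lower, and centring gave 12 and 8, with 35.1% and 31.2%.

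In KO cells 11 of 28 (39.3%) were higher and 2 (7.14%) lower, with a background of 19.6% higher and 4.66% lower. After quantile normalization 8 were higher and 5 lower, with 14% and 14.5% of all genes. Array weights left 7 calls in KO, 6 higher and 1 lower, with 8.06% and 1.52% of all genes. In Kd cells 2 of 28 were higher and 6 (21.4%) lower, with a background of 7.55% higher and 3.04% lower, and quantile normalization gave 2 and 7, with 8.32% and 7.3% of all genes. Leaving out the second Kd array left 5 calls in place of 8 for the knockdown. Of the 28 genes, 4 (14.3%) were called in all 3 comparisons with control (Itga6, Itga8, Cdh6 and Cd44), against 4.63% of all genes. Each of the 4 has a weak call. The Cdh6 call in KO/Kd ends after quantile normalization (adjusted p = 0.0769), and the Cd44 call in Kd held in 12 of 26 alternatives. Second probe sets were not past the threshold for Itga6 in KO and Kd, nor for Itga8 in Kd. In 6 (21.4%) the threshold was passed in KO/Kd and in neither KO nor Kd (Itga4, Itga7, Itgb4, Icam1, Cdh4 and Cdh11), against 39.9% of all genes, which does not show that KO/Kd differed from KO and Kd. For Cdh4 it did not by the test: KO/Kd differed from KO by 0.16 (SE 0.07, adjusted p = 0.0623) and from Kd by 0.13 (SE 0.07, adjusted p = 0.134). Itgb4 and Icam1, among the 6 called in KO/Kd alone, passed the filter through their KO/Kd arrays, so their place there is a description. In 6 (21.4%) none of the 3 was called (Itga2, Itga9, Itgb8, Alcam, Cdh1 and Cdh2), against 30.4% of all genes. These comparisons share their control arrays.

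**Figure D1:**
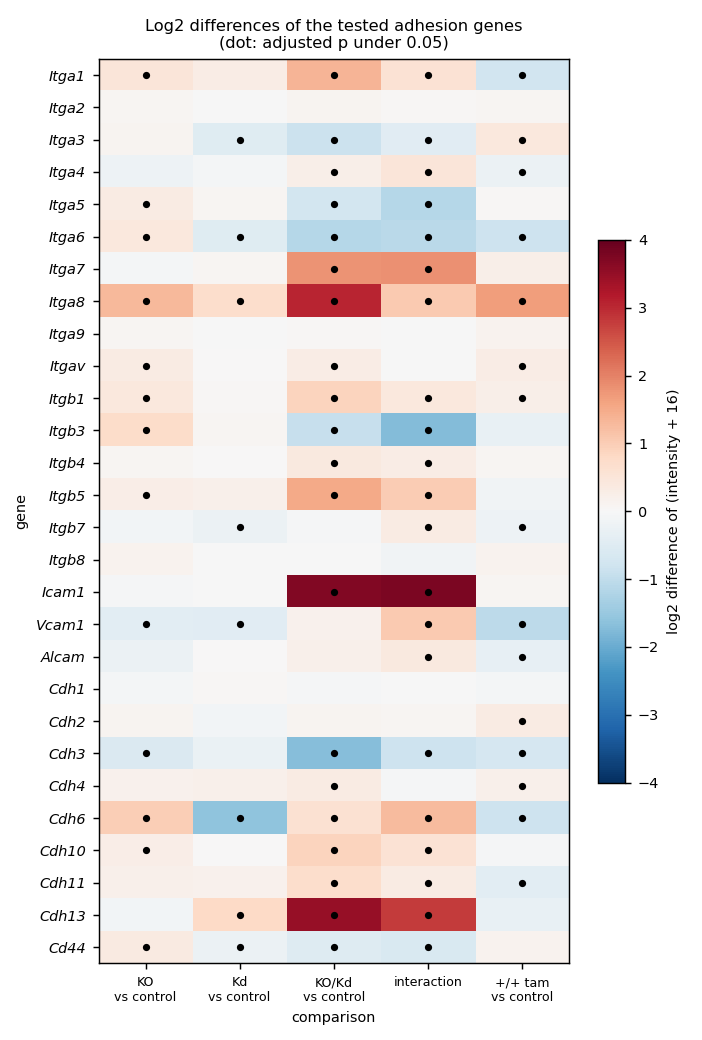
Log2 differences of (intensity + 16) of the 28 tested adhesion genes (rows) in 5 comparisons (columns), red for higher and blue for lower, with a dot where the adjusted p was under 0.05. KO/Kd against control held 20 dots, KO 13 and Kd 8, and the darkest cells were Icam1 and Cdh13 in KO/Kd.

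Of the 10 tested alpha subunits 5 (50%) rose in KO/Kd cells (Itga1, Itga4, Itga7, Itga8 and Itgav) and 3 (30%) fell (Itga3, Itga5 and Itga6), against 46.2% and 19.3% of all genes. The calls of Itga4 and Itgav end after quantile normalization. Itga8 encodes alpha8, which pairs with beta1 as a receptor for nephronectin and other RGD proteins and is known from mesenchymal cells. Itga8 intensity was 302, 361 and 371 on the control arrays, 772, 923 and 901 on the KO arrays, 574, 547 and 593 on the Kd arrays, 3260, 2096 and 3789 on the KO/Kd arrays and 1001, 1214 and 1160 on the +/+ tamoxifen arrays. Every perturbed and every +/+ array lay above the control arrays, and the KO/Kd arrays lay above all others. The rise over control was 1.29 (SE 0.16, adjusted p = 2.88e-05) in KO, 0.71 (SE 0.16, adjusted p = 0.00772) in Kd and 3.05 (SE 0.16, adjusted p = 6.67e-11) in KO/Kd. Cells with intact Hdac1 and tamoxifen were also higher than control, by 1.66 (SE 0.16, adjusted p = 1.1e-06), and KO did not differ from them by the test (-0.37, SE 0.16, adjusted p = 0.103, 95% interval -0.71 to -0.04). KO/Kd cells were higher than +/+ tamoxifen by 1.39 (SE 0.16, adjusted p = 1.01e-06). A second Itga8 probe set rose by 1.16 in KO and 3.13 in KO/Kd, and its Kd difference of 0.43 was not past the threshold (adjusted p = 0.439).

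The promoter windows of 3 strongly rising genes (Itga8, Itgb5 and Icam1) are shown so that their base composition and short motifs can be read beside the values. Each is the 250 bases before the RefSeq start in GRCm38.p6, 5′ to 3′ on the gene's strand, at chr2:12301945-12302194 (minus), chr16:33829415-33829664 (plus) and chr9:21015690-21015939 (plus), where capitals mark motif matches.
Itga8: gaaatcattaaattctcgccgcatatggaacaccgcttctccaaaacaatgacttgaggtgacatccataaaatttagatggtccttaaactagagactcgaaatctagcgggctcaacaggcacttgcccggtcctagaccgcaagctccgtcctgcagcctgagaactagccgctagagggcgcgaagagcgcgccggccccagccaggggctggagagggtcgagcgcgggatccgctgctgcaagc
Itgb5: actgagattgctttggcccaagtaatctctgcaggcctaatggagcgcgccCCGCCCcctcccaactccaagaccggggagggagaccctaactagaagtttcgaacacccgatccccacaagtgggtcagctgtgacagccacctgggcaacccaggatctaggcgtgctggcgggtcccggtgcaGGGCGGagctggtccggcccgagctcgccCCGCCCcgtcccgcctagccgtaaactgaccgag
Icam1: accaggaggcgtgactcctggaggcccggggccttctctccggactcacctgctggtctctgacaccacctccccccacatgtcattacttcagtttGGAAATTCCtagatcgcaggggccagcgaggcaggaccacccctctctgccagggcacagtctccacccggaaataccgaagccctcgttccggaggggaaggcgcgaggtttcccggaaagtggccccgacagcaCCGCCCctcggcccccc
Of the 34 genes 20 had such a window, 22 windows in all with Cdh2 left out. Motifs were searched on both strands: matches to the GC box (letters GGGCGG), the AP-1 site (letters TGANTCA), the TATA box (letters TATAAA), the CCAAT box and a kappaB form (letters GGAANNTCC) were capitalized, and those to the core of the cAMP response element (letters TGACG) and the E-box (letters CANNTG) were not. Some matches can overlap, since these motifs are short. The GC box was in 32.7% of 32851 windows and in 9 of the 22, with 3 matches in the Itgb5 window and 1 in the Icam1 window. The kappaB form was in 3.59% of all windows and in 1 of the 22, that of Icam1, where it begins at position -153 from the start; it was spelled this way after the Icam1 sequence had been seen. A more degenerate NF-kappaB consensus searched before it was in 5.0% of all windows and in 0 of the 22. The CCAAT box was in 33.8% of all windows and 3 of the 22, the cAMP element core in 17.8% and 4, the E-box in 66.2% and 17, the AP-1 site in 6.75% and 0, and the TATA box in 12.4% and 0. None of these matches is a measured binding site.

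Itga7 encodes alpha7, a laminin receptor best known from skeletal and smooth muscle. Itga7 intensity was 24.4, 20.4 and 20 on the control arrays, 18.7, 18.8 and 20.8 on the KO arrays, 23, 25.9 and 21.6 on the Kd arrays, 130, 92.9 and 125 on the KO/Kd arrays and 29.7, 29.7 and 25.2 on the +/+ tamoxifen arrays. Values on the other 12 arrays were at or near the dim range, and those on the KO/Kd arrays stood apart. The rise was 1.8 (SE 0.1, adjusted p = 1.02e-10) over control and 1.57 (SE 0.1, adjusted p = 6.57e-10) over +/+ tamoxifen, and because the control level is low these sizes are understated. Itga1 encodes alpha1, a collagen receptor. Itga1 intensity was 283, 211 and 227 on the control arrays, 325, 306 and 389 on the KO arrays, 316, 280 and 305 on the Kd arrays, 794, 501 and 650 on the KO/Kd arrays and 143, 145 and 111 on the +/+ tamoxifen arrays. It rose by 1.36 (SE 0.15, adjusted p = 4.87e-07) in KO/Kd cells and by 0.48 (SE 0.15, adjusted p = 0.0272) in KO cells, where quantile normalization (0.34, adjusted p = 0.123) and centring (0.4, adjusted p = 0.0658) end the call. The +/+ tamoxifen cells were lower than control by 0.78 (SE 0.15, adjusted p = 0.000916), and KO and KO/Kd cells exceeded them by 1.26 (SE 0.15, adjusted p = 9.84e-06) and 2.14 (SE 0.15, adjusted p = 2.58e-09).

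Alphav, the shared alpha subunit of the RGD receptors, was bright throughout: Itgav averaged 8151 ± 64.4 in control, 10191 ± 526 in KO, 8291 ± 238 in Kd, 10147 ± 834 in KO/Kd and 10073 ± 293 in +/+ tamoxifen cells (SD, n = 3). It rose in KO by 0.32 (SE 0.07, adjusted p = 0.00282) and in KO/Kd by 0.31 (SE 0.07, adjusted p = 0.00074), which quantile normalization brings to 0.12 (adjusted p = 0.0511). The +/+ tamoxifen cells were higher than control by 0.3 (SE 0.07, adjusted p = 0.00331). From them KO differed by 0.02 (SE 0.07, adjusted p = 0.909), 95% interval -0.13 to 0.16, and KO/Kd by 0.01 (SE 0.07, adjusted p = 0.931), 95% interval -0.14 to 0.15. Itga4, the alpha4 subunit that binds Vcam1, was near the dim range, with means from 18.8 to 32.1. Its rise was 0.23 (SE 0.09, adjusted p = 0.027) in KO/Kd with overlapping arrays, and the call ended after quantile normalization (0.04) and centring (0.06), whereas its KO difference of -0.19 (adjusted p = 0.131) became -0.26 in each, past the threshold.

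The fallen subunits followed another order across the groups. Itga6 encodes alpha6, a laminin receptor that pairs with beta1 or beta4. Itga6 intensity was 360, 415 and 427 on the control arrays, 491, 582 and 561 on the KO arrays, 288, 275 and 288 on the Kd arrays, 165, 173 and 183 on the KO/Kd arrays and 204, 241 and 205 on the +/+ tamoxifen arrays. The KO arrays lay above and the Kd, KO/Kd and +/+ tamoxifen arrays below the control arrays, with no overlap. The gene rose by 0.43 (SE 0.09, adjusted p = 0.0017) in KO and fell by 0.47 (SE 0.09, adjusted p = 0.00146) in Kd and by 1.13 (SE 0.09, adjusted p = 5.55e-09) in KO/Kd, while +/+ tamoxifen cells were lower than control by 0.84 (SE 0.09, adjusted p = 2.21e-06). A second Itga6 probe set differed by -1.66 in KO/Kd (adjusted p = 2.87e-06). Its differences of 0.54 in KO (adjusted p = 0.0755) and -0.41 in Kd (adjusted p = 0.275) were not past the threshold. Itga5 encodes alpha5, the alpha subunit of the main fibronectin receptor. Itga5 intensity was 2653, 3011 and 2902 on the control arrays, 3202, 3784 and 3901 on the KO arrays, 2978, 3214 and 2918 on the Kd arrays, 1658, 1783 and 1723 on the KO/Kd arrays and 2767, 3108 and 3004 on the +/+ tamoxifen arrays. All KO arrays exceeded and all KO/Kd arrays fell short of the control arrays. The rise in KO was 0.34 (SE 0.08, adjusted p = 0.00651) and the fall in KO/Kd was by 0.72 (SE 0.08, adjusted p = 8.27e-07), and 3 further Itga5 probe sets had the same signs, with KO differences from 0.58 to 1.19 and KO/Kd differences from -0.73 to -0.54.

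Itga3 encodes alpha3, a laminin receptor. Itga3 intensity was 162, 177 and 181 on the control arrays, 156, 180 and 234 on the KO arrays, 123, 119 and 111 on the Kd arrays, 93.6, 89.9 and 84.5 on the KO/Kd arrays and 224, 283 and 212 on the +/+ tamoxifen arrays. Lowest were the KO/Kd arrays and next the Kd arrays, below all control arrays. It fell by 0.85 (SE 0.12, adjusted p = 9.35e-06) in KO/Kd and by 0.5 (SE 0.12, adjusted p = 0.0114) in Kd. The Kd call rests on the brightest probe set: with the mean of its probe sets the difference was -0.16 (adjusted p = 0.244). Itga2 (a collagen receptor subunit) and Itga9 (a tenascin and Vcam1 receptor subunit) were low, with group means from 19.1 to 22.3 and from 27.9 to 32.5, and were called in no comparison with control. Further Itga9 probe sets rose in KO/Kd by 0.45 and 0.43. Itga10, a collagen receptor subunit of cartilage, was not kept, with means from 14 to 17.2. In the RefSeq gene order of GRCm38.p6 Itga1 and Itga2 are neighbours, with KO/Kd differences of 1.36 and 0.12.

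**Figure D2:**
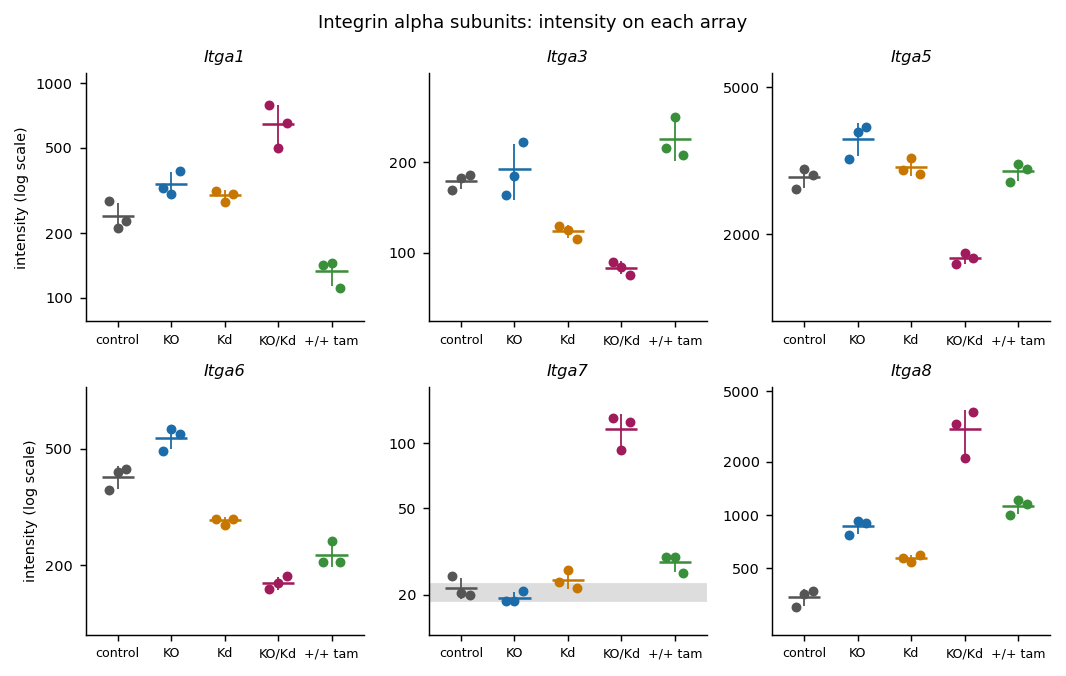
Intensity (log axis) of 6 integrin alpha subunits on each array in the 5 groups of 3, with points for arrays, horizontal lines for group means, vertical bars for ± 1 SD and a grey band for the range of the arrays' 40th percentiles (18.8 to 22.5). Itga8 and Itga7 were highest in KO/Kd (means 3048 and 116), whereas Itga5 and Itga6 were highest in KO (3629 and 545) and lowest in KO/Kd (1721 and 173).

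Of the 6 tested beta subunits 3 (50%) were higher in KO/Kd cells (Itgb1, Itgb4 and Itgb5) and 1 (16.7%) lower (Itgb3), close to the 46.2% and 19.3% of all genes, and Itgb4 was tested because of its KO/Kd arrays. Itgb1 encodes beta1, the partner of most alpha subunits. Itgb1 intensity was 14198, 15033 and 14547 on the control arrays, 18030, 20213 and 20674 on the KO arrays, 15625, 14835 and 14768 on the Kd arrays, 27610, 25025 and 27984 on the KO/Kd arrays and 17197, 16768 and 16849 on the +/+ tamoxifen arrays. It rose by 0.43 (SE 0.07, adjusted p = 0.000303) in KO and 0.88 (SE 0.07, adjusted p = 8.52e-09) in KO/Kd, and KO/Kd cells were above +/+ tamoxifen cells by 0.66 (SE 0.07, adjusted p = 3.06e-07). Itgb5 encodes beta5, an alphav partner that binds vitronectin. Itgb5 intensity was 3721, 3832 and 3876 on the control arrays, 4136, 4498 and 5195 on the KO arrays, 4551, 4587 and 4119 on the Kd arrays, 11528, 10447 and 10642 on the KO/Kd arrays and 3268, 3500 and 3538 on the +/+ tamoxifen arrays. The KO/Kd arrays exceeded all others without overlap, by 1.51 (SE 0.08, adjusted p = 1.02e-10) over control, and 3 further probe sets rose by 1.37 to 1.59. The KO rise of 0.27 (SE 0.08, adjusted p = 0.0242) was lost after quantile normalization (0.16, adjusted p = 0.0824), and the +/+ tamoxifen difference of -0.15 (SE 0.08, adjusted p = 0.189) became -0.25 after it (adjusted p = 0.00998) and -0.21 after centring (adjusted p = 0.0356).

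Itgb3 encodes beta3, another alphav partner. Itgb3 intensity was 74.2, 95 and 91.3 on the control arrays, 155, 129 and 180 on the KO arrays, 101, 94.4 and 81.9 on the Kd arrays, 33.1, 49.9 and 33.4 on the KO/Kd arrays and 81.6, 52.4 and 70.9 on the +/+ tamoxifen arrays. All KO arrays lay above and all KO/Kd arrays below the control arrays. It rose by 0.73 (SE 0.15, adjusted p = 0.00186) in KO and fell by 0.92 (SE 0.15, adjusted p = 3.55e-05) in KO/Kd, opposite to Itgb5 in KO/Kd cells, and the Kd difference was 0.08 (SE 0.15, adjusted p = 0.819). Itgb4, the alpha6 partner of hemidesmosomes, was above the 40th percentile on the 3 KO/Kd arrays alone, with means of 14.6 in control and 24.4 in KO/Kd. It passed the filter through that group, so its difference of 0.4 is a description, with no test. Itgb7, a leukocyte beta subunit, was low and fell by 0.25 (SE 0.06, adjusted p = 0.0149) in Kd from a control mean of 24.2, and its KO/Kd difference of -0.04 (adjusted p = 0.558) became -0.18 after quantile normalization (adjusted p = 0.00845) and -0.22 after centring (adjusted p = 0.00469). Itgb8, which pairs with alphav and activates latent TGF-beta, had means from 37.7 to 44.1 and was not called against control in any group, while quantile normalization gives -0.27 in KO/Kd (adjusted p = 0.0469). Itgb6, the epithelial alphav partner, was not kept, with means from 13.2 to 15.6.

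Icam1 is the ligand of the leukocyte integrins LFA-1 and Mac-1. Icam1 intensity was 15.9, 20.5 and 13.5 on the control arrays, 12.5, 15.6 and 19.3 on the KO arrays, 15.8, 15.9 and 16.9 on the Kd arrays, 602, 456 and 250 on the KO/Kd arrays and 18.1, 14.8 and 22 on the +/+ tamoxifen arrays. Only the KO/Kd arrays were far above the dim range, since 1 control and 1 +/+ tamoxifen array exceeded the 40th percentile of their own array by a small margin and no KO or Kd array did. KO/Kd exceeded control by 3.71 (SE 0.2) and +/+ tamoxifen by 3.64 (SE 0.2), which are given as a description with no test, since Icam1 passed the filter through the KO/Kd arrays. The KO/Kd arrays were widely spread (436 ± 176, SD, n = 3), and the control values lay near the dim range, which understates the size. Itgb2, the beta subunit of the leukocyte integrins that bind Icam1, had group means from 13.9 to 16.2 and was under the 40th percentile on every array. Icam2, a related ligand of endothelium, had means from 17.1 to 19.9 and was above it on 1 KO array.

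Vcam1, the ligand of alpha4beta1, was expressed in every group. Vcam1 intensity was 1855, 1800 and 1619 on the control arrays, 1201, 1264 and 1462 on the KO arrays, 1377, 1188 and 1322 on the Kd arrays, 1788, 2283 and 1943 on the KO/Kd arrays and 887, 827 and 787 on the +/+ tamoxifen arrays. It fell by 0.42 (SE 0.1, adjusted p = 0.0052) in KO and by 0.44 (SE 0.1, adjusted p = 0.00844) in Kd, and the KO/Kd difference from control was 0.18 (SE 0.1, adjusted p = 0.115), with overlapping arrays. Quantile normalization and centring brought that difference to -0.03 and 0.01. Further Vcam1 probe sets rose in KO/Kd by 0.27 (adjusted p = 0.0368) and 0.47 (adjusted p = 0.0171), so the KO/Kd result depends on the probe set. In Kd these fell by 0.35 and 0.41, not past the threshold. KO/Kd cells were higher than KO cells by 0.61 (SE 0.1, adjusted p = 5.81e-05) and higher than Kd cells by 0.62 (SE 0.1, adjusted p = 3.97e-05). The +/+ tamoxifen cells were the lowest, 1.06 (SE 0.1, adjusted p = 8.53e-07) under control on the log2 scale, and KO exceeded them by 0.64 (SE 0.1, adjusted p = 0.000163). Alcam, a ligand of CD6 on T cells, had means from 1322 to 1913, and its differences in KO (-0.22, SE 0.09, adjusted p = 0.103), Kd (0.03, SE 0.09, adjusted p = 0.897) and KO/Kd (0.2, SE 0.09, adjusted p = 0.0779) were not called. In KO the scalings give -0.31 and -0.3, both past the threshold. A further Alcam probe set differed by -0.38 in KO (adjusted p = 0.0104) and the others were not called there, so the KO result depends on the probe set.

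Cd44 was among the bright genes. Cd44 intensity was 12091, 12535 and 11890 on the control arrays, 14485, 15109 and 17036 on the KO arrays, 10203, 10026 and 10515 on the Kd arrays, 8118, 9421 and 8194 on the KO/Kd arrays and 13990, 12914 and 13104 on the +/+ tamoxifen arrays. It was higher than control on every KO array and lower on every Kd and KO/Kd array. The change was 0.35 (SE 0.08, adjusted p = 0.00315) in KO, -0.25 (SE 0.08, adjusted p = 0.047) in Kd and -0.51 (SE 0.08, adjusted p = 1.81e-05) in KO/Kd, and 2 further probe sets had the same signs. The Kd call sits at the threshold and is lost when any 1 of the control or Kd arrays is left out, with adjusted p from 0.083 to 0.146. Cd44 thus followed Itga5, Itga6 and Itgb3: these 4 of 28 (14.3%) were called higher in KO and lower in KO/Kd, against 1% of all genes.

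**Figure D3:**
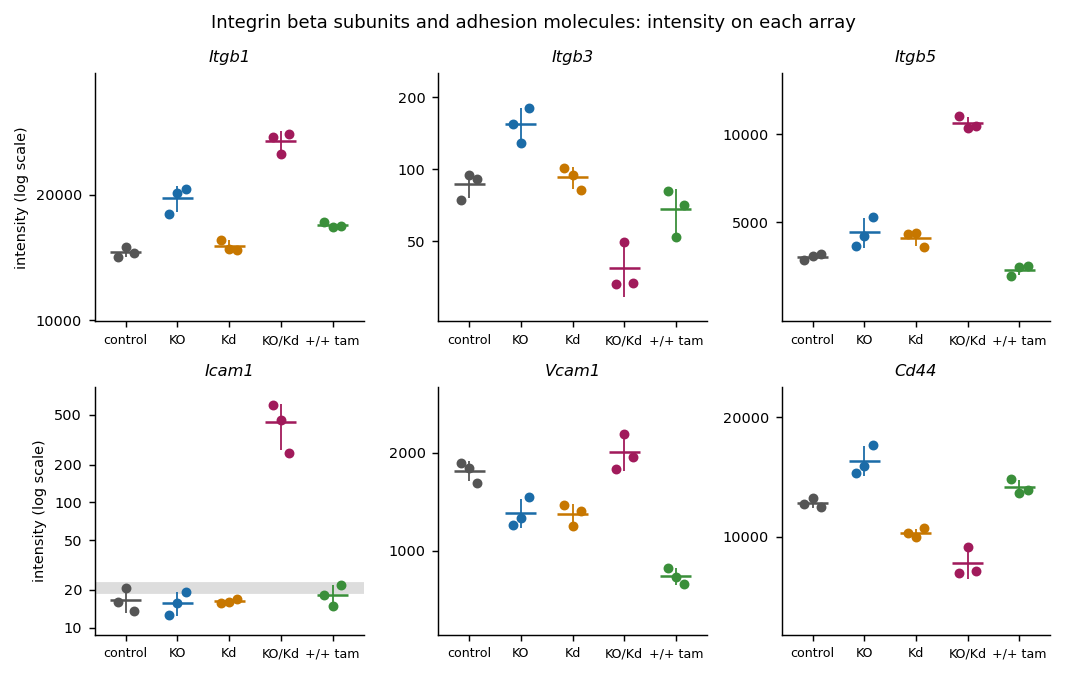
Intensity (log axis) of 3 integrin beta subunits, Icam1, Vcam1 and Cd44 on each array, with points for arrays, horizontal lines for the means of 3, vertical bars for ± 1 SD and a grey band for the range of the arrays' 40th percentiles. The KO/Kd arrays of Icam1 lay at 250 to 602, whereas no other array of Icam1 was above 22.

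Of the 8 tested cadherins 5 (62.5%) rose in KO/Kd cells (Cdh4, Cdh6, Cdh10, Cdh11 and Cdh13) and 1 (12.5%) fell (Cdh3), against 46.2% and 19.3% of all genes. The calls of Cdh6 and Cdh4 end under quantile normalization and centring, respectively. Cdh13 encodes T-cadherin, an atypical cadherin held in the membrane by a lipid anchor that also binds adiponectin. Cdh13 intensity was 98.9, 85.8 and 96.8 on the control arrays, 70, 84.2 and 107 on the KO arrays, 165, 178 and 177 on the Kd arrays, 1243, 1277 and 1145 on the KO/Kd arrays and 70.4, 55 and 96.4 on the +/+ tamoxifen arrays. The KO/Kd arrays exceeded all others, and the Kd arrays lay between them and the control arrays. The rise was 0.79 (SE 0.14, adjusted p = 0.0013) in Kd and 3.49 (SE 0.14, adjusted p = 2.96e-12) in KO/Kd, and the KO difference was -0.1 (SE 0.14, adjusted p = 0.646). Further probe sets rose by 3.32 and 3.42 in KO/Kd. In Kd they differed by 0.63 (adjusted p = 0.00866) and 0.35 (adjusted p = 0.354), the second not past the threshold.

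Cdh6 encodes K-cadherin, known from kidney and neural crest. Cdh6 intensity was 117, 109 and 99 on the control arrays, 211, 229 and 251 on the KO arrays, 28, 26 and 19.8 on the Kd arrays, 208, 191 and 134 on the KO/Kd arrays and 56.3, 60.5 and 45.2 on the +/+ tamoxifen arrays. The KO arrays and, less far, the KO/Kd arrays lay above control, and the Kd and +/+ tamoxifen arrays lay below. Its fall of 1.62 (SE 0.13, adjusted p = 5.38e-07) in Kd was the largest there, and the rise was 0.98 (SE 0.13, adjusted p = 6.51e-05) in KO and 0.62 (SE 0.13, adjusted p = 0.000561) in KO/Kd, which quantile normalization brings to 0.28 (adjusted p = 0.0769). KO/Kd cells exceeded Kd cells by 2.24 (SE 0.13, adjusted p = 3.75e-10) and fell short of KO cells by 0.36 (SE 0.13, adjusted p = 0.0272). With +/+ tamoxifen as the base, where Cdh6 was 0.83 (SE 0.13, adjusted p = 0.000208) under control, KO was higher by 1.82 (SE 0.13, adjusted p = 3.83e-08) and KO/Kd by 1.45 (SE 0.13, adjusted p = 6.86e-08).

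Cdh3 encodes P-cadherin, an epithelial cadherin. Cdh3 intensity was 271, 216 and 220 on the control arrays, 143, 146 and 166 on the KO arrays, 195, 211 and 169 on the Kd arrays, 52.2, 68.8 and 63.1 on the KO/Kd arrays and 148, 131 and 146 on the +/+ tamoxifen arrays. Every KO/Kd array was below all others. It fell by 1.7 (SE 0.1, adjusted p = 4.84e-10) in KO/Kd and by 0.58 (SE 0.1, adjusted p = 0.000751) in KO, yet the +/+ tamoxifen cells were also lower than control, by 0.67 (SE 0.1, adjusted p = 0.000174), and KO differed from them by only 0.09 (95% interval -0.13 to 0.31, adjusted p = 0.617). KO/Kd cells were lower than +/+ tamoxifen by 1.03 (SE 0.1, adjusted p = 2.45e-07). Cdh1 (E-cadherin), its neighbour in the RefSeq gene order, had means from 22.9 to 27 and was not called in any comparison with control, while quantile normalization and centring give -0.21 (adjusted p = 0.0376) and -0.23 (adjusted p = 0.0175) in KO/Kd.

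Cdh11, cadherin-11 of mesenchymal cells, was bright, with 12105 ± 497 in control, 13773 ± 760 in KO, 13562 ± 589 in Kd, 19558 ± 945 in KO/Kd and 9112 ± 518 in +/+ tamoxifen cells (SD, n = 3). It rose in KO/Kd by 0.69 (SE 0.07, adjusted p = 2.09e-07), and a second probe set rose by 1.74. In KO the second probe set rose by 0.24 (adjusted p = 0.0337), and the brightest was not past the threshold (0.19, adjusted p = 0.0654). Cdh10, cadherin-10 of neural tissue, rose by 0.88 (SE 0.1, adjusted p = 5.34e-07) in KO/Kd and by 0.28 (SE 0.1, adjusted p = 0.0415) in KO, a call that ended under quantile normalization (adjusted p = 0.167). Cdh2 (N-cadherin) averaged 3040 ± 202 in control and 3259 ± 57.9 in KO/Kd cells, a difference of 0.1 (SE 0.07, adjusted p = 0.209), and was called in no comparison with control other than +/+ tamoxifen (0.32, SE 0.07, adjusted p = 0.00285). A further Cdh2 probe set fell by 0.39 in KO/Kd (adjusted p = 0.00952), so the gene's value depends on the probe set. Cdh5, the endothelial VE-cadherin, was not kept, with means from 13.7 to 16. Cdh4 (R-cadherin) was near the dim range, with means from 17.2 to 25.7, and rose by 0.33 (SE 0.07, adjusted p = 0.000651) in KO/Kd, a call that centring ends (adjusted p = 0.0693).

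**Figure D4:**
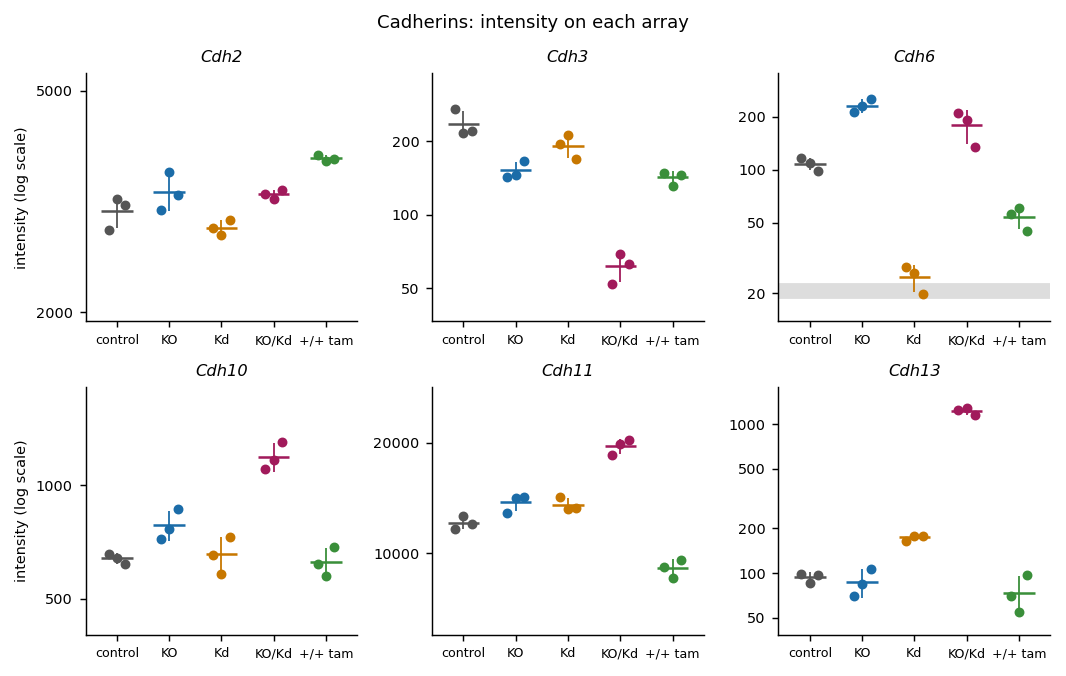
Intensity (log axis) of 6 cadherins on each array in the 5 groups, with points for arrays, horizontal lines for the means of 3, vertical bars for ± 1 SD and a grey band for the range of the arrays' 40th percentiles. Cdh13 was highest in KO/Kd (mean 1222), Cdh3 was lowest there (61.4), and Cdh6 was highest in KO (230) and lowest in Kd (24.6).

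The interaction asks whether the effect of deletion in knockdown cells differs from its effect in control cells. It was called for 21 of 28 adhesion genes, 15 (53.6%) above 0 and 6 (21.4%) below, with a background of 25.8% above and 17.2% below. After quantile normalization it was 14 and 6, with 24.1% and 25.8% of all genes. Without Itgb4 and Icam1 it was 13 and 6 of 26, against 25% and 17.6% of the 13040 genes. The Itga1 interaction of 0.57 (adjusted p = 0.0369) is not past the threshold after quantile normalization (adjusted p = 0.0603) or centring (adjusted p = 0.0733). The largest were 3.77 (SE 0.29) for Icam1, given as a description, 2.81 (SE 0.2, adjusted p = 1.62e-08) for Cdh13, 1.82 (SE 0.14, adjusted p = 3.57e-08) for Itga7 and -1.72 (SE 0.21, adjusted p = 5.16e-06) for Itgb3. For Icam1 and Itga7 the single differences summed to -0.05 and -0.01, against 3.71 and 1.8 in combination. For Itgb3 and Itga5 they summed to 0.8 and 0.43, against -0.92 and -0.72. On its brightest probe set Itga8 rose in both single perturbations, which summed to 2, and by 3.05 in combination (interaction 1.05, SE 0.22, adjusted p = 0.00117). Vcam1 went from a sum of -0.86 to 0.18 (interaction 1.04, SE 0.14, adjusted p = 1.61e-05). Among the 7 not called, Itgav had an interaction of -0.03 (SE 0.1, adjusted p = 0.824) with a 95% interval -0.24 to 0.17.

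**Figure D5:**
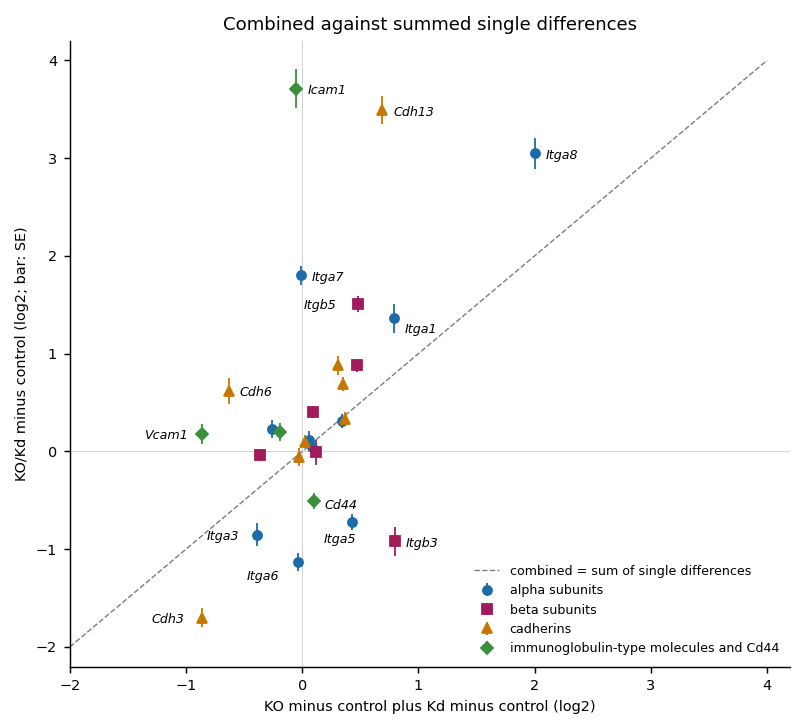
Difference of KO/Kd from control (vertical, log2, bars for ± 1 SE) against the sum of the KO and Kd differences (horizontal, log2) for the 28 tested adhesion genes, with a dashed line where the combination equals the sum. Icam1, Cdh13, Itga7 and Itga8 lie above the line and Itgb3, Itga5, Itga6 and Cdh3 below it, and both axes share the control arrays.

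KO/Kd cells differed from each single perturbation in a similar number of adhesion genes. Against KO 13 were higher and 7 lower (background 36.2% and 20.6%, and 30.1% and 31.2% after quantile normalization, where 13 and 8 adhesion genes were called). Against Kd 16 were higher and 6 lower (background 42.9% and 20.5%, and 31.3% and 32.7% after quantile normalization, where 13 and 7 were called). Against +/+ tamoxifen 15 were higher and 7 lower (background 38.3% and 23.5%, and 31.9% and 32.7% after quantile normalization, where 14 and 9 were called). Without Itgb4 and Icam1, which passed the filter through their KO/Kd arrays, 11 of 26 were higher and 7 lower against KO. Against Kd it was 14 and 6, and against +/+ tamoxifen 13 and 7. The shares of the 13040 genes that pass without those arrays were 35.4% and 21.2%, 42% and 21%, and 37.4% and 24.1%, in that order.

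The +/+ tamoxifen group itself differed from control in 15 of 28 adhesion genes, 6 higher and 9 lower, with a background of 21.5% higher and 6.93% lower, and 14.5% and 15% after quantile normalization, where 4 and 12 were called. The largest differences were in Itga8 (1.66), Vcam1 (-1.06), Itga6 (-0.84), Cdh6 (-0.83) and Itga1 (-0.78). KO against +/+ tamoxifen gave 11 higher and 2 lower (background 12.8% and 11.3%), and a total of 7 and 8 were called without the first and the second +/+ tamoxifen array. With array weights 7 were called, beside 6.82% of all genes higher and 5.15% lower. Higher against both bases were Itga1, Itga5, Itga6, Itgb1, Itgb3, Itgb5, Cdh6, Cdh10 and Cd44. Against +/+ tamoxifen the calls of Cd44 and Itgb1 held in only 9 and 17 of 26 alternatives. Vcam1 was lower in KO than in control and higher than in +/+ tamoxifen, and Cdh11 was higher and Itga7 and Cdh2 lower against +/+ tamoxifen alone. That Cdh2 call held in 10 of 26 alternatives. Itga8, Itgav and Cdh3 were called against control but not against +/+ tamoxifen.

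Genes that meet the adhesion receptors were counted from 6 lists with 112 tested genes. Of the matrix ligands of integrins 24 of 27 rose and 2 fell in KO/Kd cells, with a median difference of 0.94 against 0.16 for all genes. Among them the laminin chains Lama5, Lama1 and Lama2 rose by 1.99, 1.96 and 1.93, and Edil3, an RGD ligand of alphavbeta3 and alphavbeta5, rose by 1.76. In KO, where 19.6% of all genes were higher and 4.66% lower, 12 rose and 5 fell, with Tgfbi, a matrix ligand of several integrins, down by 0.72, and in Kd, with 7.55% and 3.04%, 8 rose and 3 fell, with Col4a1 and Col4a2, the chains of basement membrane collagen, up by 0.57 and 0.58.

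Of the focal adhesion proteins, which link integrins to actin and signalling, 15 of 30 rose in KO, 4 rose and 2 fell in Kd, and 14 rose and 4 fell in KO/Kd. All genes had 19.6% higher and 4.66% lower in KO, 7.55% and 3.04% in Kd, and 46.2% and 19.3% in KO/Kd, so the KO/Kd count of this list was near the background. Tns1 (tensin 1) rose by 1.88 and Lims2 (PINCH2) by 1.82 in KO/Kd, and Pxn (paxillin) by 1.03. Parvb (beta-parvin) rose by 0.79 in KO and fell by 0.85 in Kd. Of the other immunoglobulin-type and hyaluronan molecules 18 of 27 rose and 5 fell in KO/Kd: Cadm4 rose by 3.35, Jam2 by 3.02 and Mcam by 2.85, and Hmmr, a hyaluronan-binding protein that also acts on the mitotic spindle, fell by 2.83. In KO 14 rose and 1 fell, and in Kd 6 rose and 3 fell.

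Of the other cadherins 8 of 13 rose in KO/Kd, among them Pcdh7 (2.31), Dchs1 (2.09), Celsr2 (1.34) and Fat4 (0.84). In KO 1 rose and in Kd 2 did. Dchs1 had dim group means of 16.2 to 18.2 outside KO/Kd, with 121 in KO/Kd. It passed the filter through its KO/Kd arrays, so its difference is a description, and the 8 include it. Of the catenins and cadherin partners 7 of 13 rose and 1 fell in KO/Kd, with Arvcf at 1.51, Ctnnal1 (alpha-catulin) at 1.46 and Jup (plakoglobin) at 1.11, and 3 rose in KO and 1 in Kd. The 2 tested genes among the other integrin subunits were Itga2b, with group means from 41.8 to 47.5, and Itgae, with means from 18.6 to 24.1. The SE of the KO/Kd differences named from these lists ran from 0.08 (Edil3, Dchs1 and Pxn) to 0.19 (Hmmr). With Dchs1 left out as a description, the highest adjusted p among them was 0.00034 (Fat4). The counts of every list stand beside the same shares of all genes, 19.6% higher and 4.66% lower in KO, 7.55% and 3.04% in Kd, and 46.2% and 19.3% in KO/Kd.

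By the correlation of log2 values over the 15 arrays, which share the group structure and the arrays' scaling, Icam1 was most like Kcnmb4 (r = 0.994), Cd74 (0.993) and Fndc5 (0.992). All 3 were at or near the dim range outside KO/Kd, with KO/Kd means of 272, 247 and 136. Itga8 was most like Bhlhe40 (0.984), Mvp (0.984) and Tmem50b (0.981), and Cdh6 most like Tmem141 (0.966), Pvt1 (0.953) and Slc48a1 (0.949).

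Markers of cell types were read on the same arrays, and their counts stand beside 46.2% higher and 19.3% lower of all genes in KO/Kd. All 10 fibroblast markers passed the filter, with a summed intensity of 136807 to 143685 in control and 166269 to 175165 in KO/Kd arrays, with 7 higher and 1 lower in KO/Kd. Dcn and Fap had control means of 22.4 and 13.3, the first a little above and the second below the control arrays' 40th percentiles, and KO/Kd means of 3979 and 58.7. Fap had means of 12.7 to 14.8 outside KO/Kd, so it passed the filter through its KO/Kd arrays. The endothelial marker Kdr was at or below the dim range outside KO/Kd (means 15.7 to 20.4), with 77.2 in KO/Kd. The marker counts include such genes and are descriptions. Of the 10 endothelial markers Pecam1, Tie1, Cldn5, Emcn, Sox18 and Vwf were below the 40th percentile on all arrays, and the sum was 250 to 276 in control and 434 to 503 in KO/Kd, with 3 higher. Most of that rise was in Egfl7 (means of 136 in control and 252 in KO/Kd) and Kdr. Of the 10 leukocyte markers Ptprc, Itgam and Tyrobp were below the 40th percentile on all arrays, with sums of 434 to 459 in control and 432 to 623 in KO/Kd and 2 higher. Of the smooth muscle and pericyte markers 9 of 10 were higher in KO/Kd, among them Notch3 (means of 25.9 in control and 1961 in KO/Kd) and Rgs5 (38.2 and 317). The 1 that was lower was Cspg4 (1905 and 1302). The sums of this list were 67311 to 69063 in control and 94310 to 100377 in KO/Kd.

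The skeletal muscle sum was 161 to 179 in control and 246 to 260 in KO/Kd, with 4 of 10 higher and Myod1, Myf6, Pax7 and Ckm below the 40th percentile on all arrays. The epithelial sum was 479 to 590 in control and 402 to 458 in KO/Kd, with 2 of 10 lower and Krt14, Cldn4 and Esrp1 below it on all arrays. Most of the epithelial sum was Krt19, with means of 341 in control and 223 in KO/Kd, so it says little of the other epithelial markers. The neural sum was 1623 to 1745 in control and 3311 to 3455 in KO/Kd, with 5 of the 8 measured markers higher and S100b below the 40th percentile on all arrays. Most of this rise was in Tubb3 (means of 528 in control and 1740 in KO/Kd) and Map2 (576 and 871). Sox10, Gfap and Ngfr had KO/Kd means of 29.9, 18.5 and 25.3, so the sum says little of them. Apart from the leukocyte sum, whose ranges overlap, the sums of KO/Kd and control arrays did not overlap. These sums are of unscaled intensities, and array medians were 29.1 to 30.7 in KO/Kd and 24.1 to 25.1 in control. The part of these markers in the adhesion results was not tested.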

How the data were processed

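Total RNA of 15 samples in 5 groups of 3 was labelled with biotin and hybridised to Affymetrix mouse arrays, per the labels' protocols. The deposited values are probe set intensities on a linear scale; the summarisation, scaling and software the authors used are not given in the sources used here. Whether replicate arrays stem from independent cultures is not in the labels, and the p-values therefore cover only the spread between these arrays, possibly a technical one.

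Of 45037 probe sets 34945 had 1 gene symbol, 932 several and 9160 none in the platform annotation, and 34741 of the first were found by Entrez ID, with 0 symbols changed. The brightest probe set per symbol was kept where 3 or more arrays had it above their own 40th percentile, and log2(intensity + 16) was fitted with limma 3.58.1 in R 4.3.3 over all 15 arrays, with 9 comparisons and Benjamini-Hochberg adjustment over 13382 genes. Precision is limited by 3 arrays a group, with a median SE of 0.0868 (0.1228 for the interaction). The fit was tested on simulated data. Every listed gene was described; of each pathway list up to 4 genes past the threshold with the largest difference from control were open to naming, and for the gene with the largest difference in each comparison with control the 3 genes with the highest correlation. Members and lists were chosen with earlier results of these data known. Alternatives covered normalization, array weights, filters, probe set choice, pseudocount, a replicate block and leaving out each array. Replicate numbers were not used to pair the arrays in the main fit.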

Additional observations from a re-analysis of the deposited data

Results flagged for a closer look

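The effect of Hdac1 deletion differed between cells with and without Hdac2 knockdown, by limma's interaction term with Benjamini-Hochberg adjustment over 13382 genes, for 21 of the 28 tested adhesion genes. Each value is the log2 difference KO/Kd minus Kd, less the log2 difference KO minus control. Among alpha subunits it was 0.57 for Itga1, -0.45 for Itga3, 0.48 for Itga4, -1.15 for Itga5, -1.09 for Itga6, 1.82 for Itga7 and 1.05 for Itga8. Itga1 is not past the threshold after quantile normalization (adjusted p = 0.0603) or centring (adjusted p = 0.0733), and the calls of Itga1 and Itga3 held in 14 and 15 of 26 alternatives. Among beta subunits it was 0.41 for Itgb1, -1.72 for Itgb3, 0.31 for Itgb4, 1.03 for Itgb5 and 0.32 for Itgb7. Itgb4 and Icam1 passed the filter through their KO/Kd arrays, so their values are descriptions. It was 3.77 for Icam1, 1.04 for Vcam1, 0.38 for Alcam and -0.61 for Cd44. Among cadherins it was -0.84 for Cdh3, 1.25 for Cdh6, 0.57 for Cdh10, 0.34 for Cdh11 and 2.81 for Cdh13.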

How the results depend on the processing

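Array weights lowered the number of adhesion genes called in KO from 13 to 7 and in KO against +/+ tamoxifen from 13 to 7. They raised it in Kd from 8 to 11, with the higher ones from 2 to 5. The shares of all genes moved the same way, from 19.6% higher and 4.66% lower to 8.06% and 1.52% in KO. In KO against +/+ tamoxifen these shares went from 12.8% and 11.3% to 6.82% and 5.15%. In Kd they went from 7.55% and 3.04% to 14.4% and 6.65%. The estimation of the array weights gave a convergence warning, and the cause was not tested. Leaving out 1 array at a time gave 10 to 14 calls in KO, 5 to 9 in Kd, 19 to 21 in KO/Kd, 19 to 21 in KO/Kd against KO, 20 to 22 against Kd, 18 to 21 interactions, 10 to 15 in +/+ tamoxifen, 7 to 14 in KO against +/+ tamoxifen and 21 to 23 in KO/Kd against +/+ tamoxifen. The mean of the probe sets in place of the brightest one turned Itga9 in KO/Kd against KO from -0.04 to 0.23, Cdh2 in KO/Kd against Kd from 0.2 to -0.05, and Itgav in KO/Kd against +/+ tamoxifen from 0.01 to -0.26, by the alternative's own construction, since other probe sets enter. With a replicate block the calls were 13 in KO, 7 in Kd, 20 in KO/Kd, 21 interactions and 14 in +/+ tamoxifen. The correlation of deviations of same-numbered arrays exceeded 0.1 in 2 of 30 pairs (range -0.16 to 0.14). Whether the numbers stand for a pairing cannot be decided this way, since each deviation is from a mean of only 3 arrays. Signal over background limits Itga2, Itga4, Itga9, Itgb4, Itgb7, Cdh1 and Cdh4, whose intensities lie near the arrays' 40th percentiles.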
